A study of Mus musculus with 6 samples.

Results

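The mitosis and spindle genes are 49 genes whose products drive, build or police the division of chromosomes. They were chosen by symbol from a list of known mitotic genes, with earlier results of these data known. Each matched a single line of the count table, 49 of 45808 gene lines. All 49 were also among the 14459 genes with enough counts to be tested. They were followed in 6 RNA-seq libraries of cultured stromal-vascular cells, the part of fat tissue without mature fat cells, during differentiation into beige adipocytes, which are heat-producing adipocytes of white depots. Male mice aged 8 weeks gave the inguinal fat, all libraries are labelled WT (wild-type), and no other genotype was analysed here. Day 0 was the confluent culture before any induction. Day 2 followed 2 days in induction medium with IBMX (0.5 mM), dexamethasone (5 µM), indomethacin (125 µM), insulin (850 nM), T3 (1 nM) and rosiglitazone (1 µM). Day 6 followed a switch from day 2 on to maintenance medium that kept insulin, T3 and rosiglitazone at those doses. Each day had 2 libraries, numbered 76 and 77, and values below are given in that order.

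Cells enter mitosis when cyclin A and cyclin B activate the kinase Cdk1, and Plk1 and the Aurora kinases then shape the spindle of microtubules. Kinetochores tie each chromosome to the spindle, and a checkpoint holds back the anaphase-promoting complex until all are attached. That complex then marks cyclin B and securin for destruction, separase cuts the cohesin that holds sister chromatids, and the central spindle guides cytokinesis. Most of these genes are transcribed in late S phase, G2 and M, so their RNA is low in cells that have left the cycle. In cultured fat precursors, hormonal induction is known in some models to be followed by a round or more of division, called mitotic clonal expansion, before the cells become adipocytes.

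Counts in genes ran from 22522221 to 29458374 per library. Levels are given as CPM, counts scaled to library size with edgeR's TMM factors, and the 3 counts taken as the floor of detection equal 0.0994 to 0.150 CPM. The lowest member count in any library was 10, for Cdc25c at day 6, so all 49 genes were above that floor throughout. The summed level of the 49 genes was 851 and 861 CPM on day 0, then 2498 and 2444 on day 2 and 225 and 301 on day 6. Together they held 0.0883% ± 0.00152 of gene counts on day 0, then 0.275% ± 0.00586 on day 2 and 0.0229% ± 0.00543 on day 6 (SD, n = 2). The sum was thus highest in both day 2 libraries and lowest in both day 6 libraries, with no overlap between days. In bulk RNA a smaller share of dividing cells and less of these RNAs per dividing cell cannot be told apart.

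All 49 genes were highest at day 2, and in each the 2 libraries of day 2 lay above the other 4. How often libraries lay apart in this way among all genes tested was not counted, so the shares below are of called genes. All 49 rose from day 0 to day 2 by edgeR's quasi-likelihood test at an adjusted p of 0.05, where 33.6% of all genes tested were called higher. All 49 then fell from day 2 to day 6, where 27.5% of all genes tested were called lower and 38.2% higher. The joint pattern of a called rise and a called fall was thus shown by 49 of 49 genes, against 15.1% of all genes tested. Of the 49, 48 ended below their day 0 level, against 35.1% of all genes tested called lower at day 6 than at day 0, and 1, Spc25, ended above it, against 35.9% called higher.

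**Figure D1:**
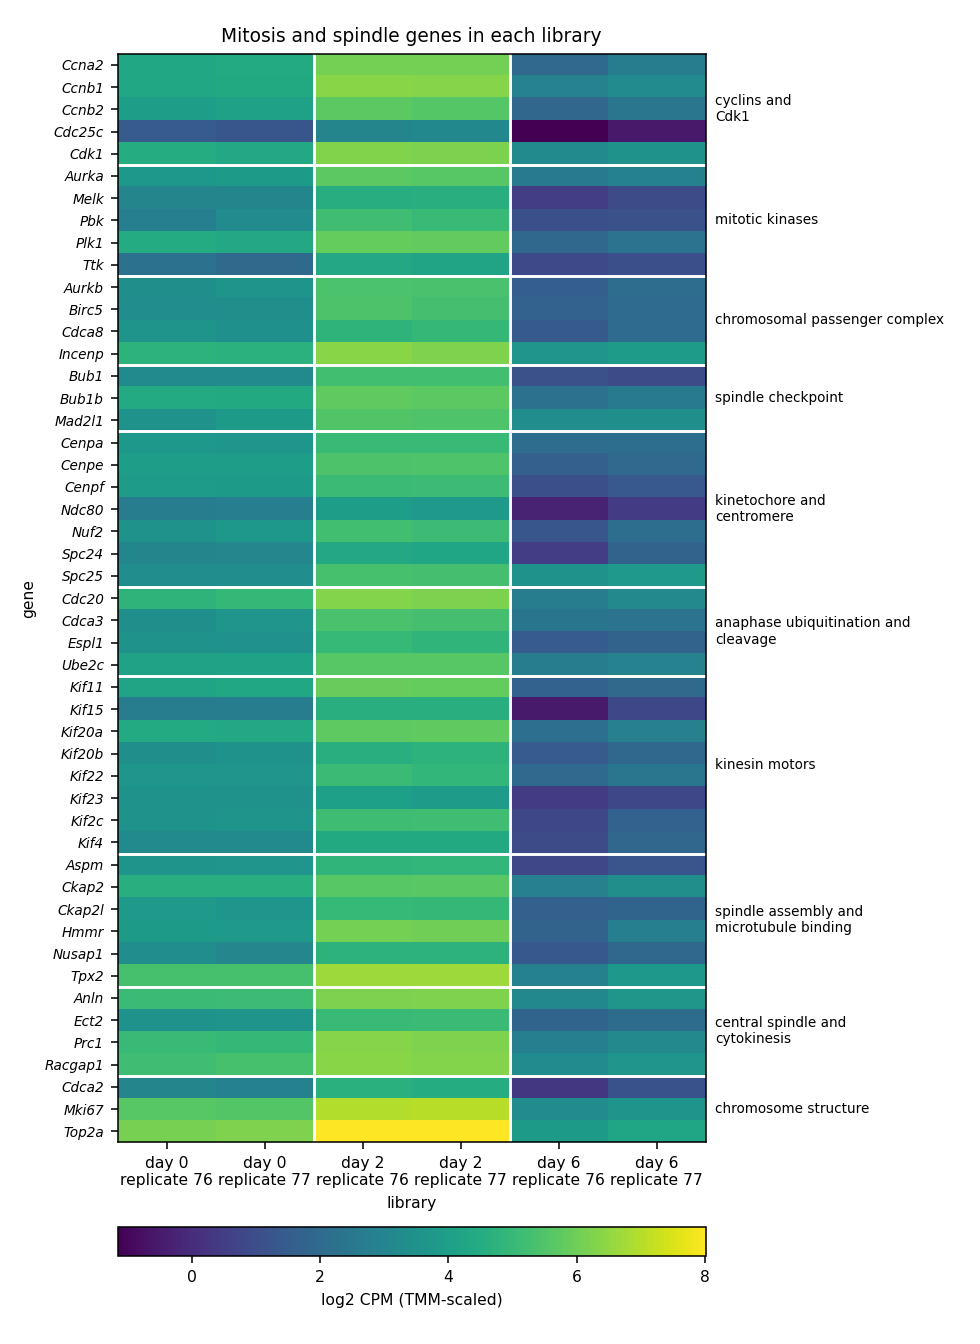
Level of each of the 49 genes in each of the 6 libraries, as log2 CPM on a colour scale; rows are genes grouped by role and columns are libraries grouped by day. The 2 day 2 columns are the brightest in every row, and the day 6 columns are the darkest in every row but that of Spc25.

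The median log2 change of the 49 genes from day 0 to day 2 was 1.52, a 2.87-fold rise, with the middle of the set between 1.29 and 1.80 (quartiles). For all 14459 genes tested the median was 0.0042, with quartiles of -0.68 and 0.55. The rise passed 2-fold in 48 of 49 genes, against 12.3% of all genes tested that were called higher by over 2-fold. Of all genes tested, 6.51% rose by at least the median of the 49. From day 2 to day 6 the median log2 change was -3.31, a 9.93-fold fall (all genes tested, 0.12). All 49 fell by over 2-fold, against 10.4% of all genes tested. A fall at least as steep as the median of the 49 was seen in 1.12% of all genes tested. Over the whole course, from day 0 to day 6, the median log2 change was -1.87, a 3.65-fold fall (all genes tested, -0.01), and 46 genes fell by over 2-fold, against 18.4% of all genes tested. The 3 comparisons share libraries and are given side by side. As a share of its own day 2 mean CPM, a member stood at a median of 34.8% at day 0, from 21.0% in Hmmr to 73.1% in Kif23. At day 6 that share was a median of 10.1%, from 5.19% in Kif15 to 31.8% in Spc25.

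**Figure D2:**
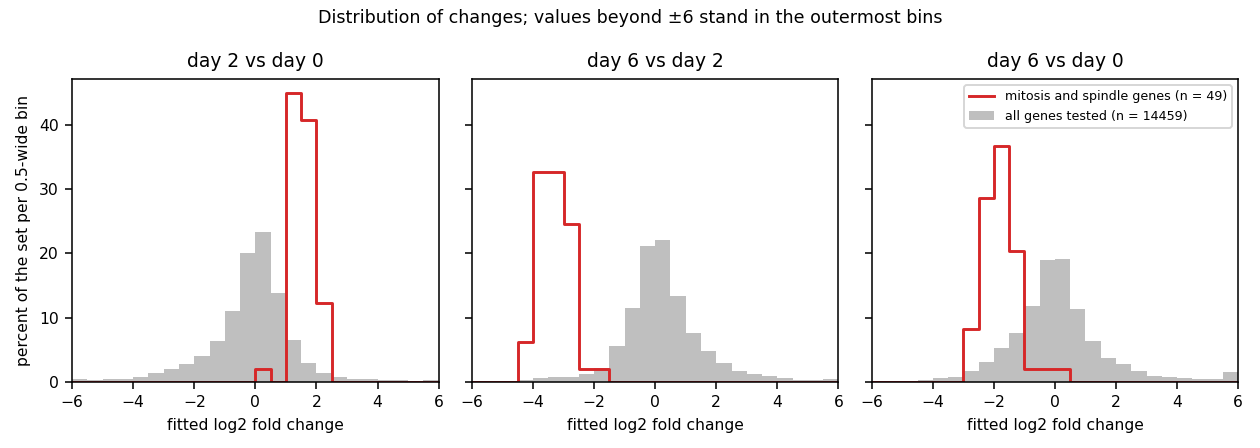
Share of genes per bin of fitted log2 fold change, as percent of the set, for the 49 mitosis and spindle genes (red line) and all 14459 genes tested (grey bars) in the 3 comparisons. The 49 genes lie to the right of 0 at day 2 against day 0 and to the left of 0 at day 6 against day 2, around medians of 1.52 and -3.31.

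The cyclins, their kinase and its activating phosphatase moved together. Ccna2, cyclin A2, stood at 19.7 and 22.0 CPM on day 0, then 67.8 and 68.4 on day 2 and 3.98 and 6.48 on day 6. Ccnb1, cyclin B1, stood at 20.3 and 21.0 CPM on day 0, then 84.4 and 80.9 on day 2 and 7.42 and 9.73 on day 6. Cdk1, the kinase both cyclins activate, stood at 22.8 and 21.0 CPM on day 0, then 78.1 and 74.0 on day 2 and 9.38 and 11.8 on day 6. In all 3 genes the libraries of the 3 days kept apart, with day 2 on top and day 6 at the bottom. The rises to day 2 were 3.27-fold for Ccna2 (log2 change 1.71, SE 0.14), 4.00-fold for Ccnb1 (SE 0.10) and 3.47-fold for Cdk1 (SE 0.10). By day 6 Ccna2 had fallen 13.1-fold, Ccnb1 9.67-fold and Cdk1 7.21-fold from day 2, so Cdk1 kept 48.3% of its day 0 level and Ccna2 25.1%. Cyclin B2, Ccnb2, rose 3.04-fold and then fell 10.9-fold. Cdc25c, the phosphatase that removes inhibitory phosphates from Cdk1, was the lowest of the 49 genes in every library and rose 3.17-fold before falling 14.6-fold (adjusted p = 8.58e-05 and 3.50e-06 by edgeR).

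The mitotic kinases had a median log2 change of 1.88 at day 2 over 5 genes, the highest of the 10 roles. Plk1, polo-like kinase 1, which acts from mitotic entry to cytokinesis, stood at 22.5 and 20.9 CPM on day 0, then 58.0 and 56.5 on day 2 and 3.71 and 5.09 on day 6. Aurka, the Aurora kinase of the spindle poles, stood at 13.4 and 14.1 CPM on day 0, then 52.0 and 49.5 on day 2 and 5.94 and 7.23 on day 6. Ttk, the kinase Mps1 that starts checkpoint signalling at kinetochores, stood at 4.87 and 4.04 CPM on day 0, then 20.7 and 18.5 on day 2 and 1.83 and 2.09 on day 6. None of these genes overlapped between days. Ttk rose 4.38-fold by day 2 (log2 change 2.13, SE 0.14), the second highest fitted rise of the set, Aurka 3.69-fold (SE 0.10) and Plk1 2.63-fold (SE 0.11). At day 6 against day 0 Plk1 was 4.96-fold lower and Aurka 2.09-fold lower. Pbk, a kinase of mitotic cells, and Melk, a kinase of dividing and progenitor cells, rose 4.28-fold and 2.90-fold and then fell 16.4-fold and 14.2-fold.

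The chromosomal passenger complex, in which Aurora B corrects faulty attachments and later acts in cytokinesis, rose in all 4 subunits. Aurkb, its kinase, stood at 10.6 and 12.1 CPM on day 0, then 42.5 and 41.9 on day 2 and 2.99 and 4.39 on day 6. Birc5, survivin, which brings the complex to centromeres, stood at 10.1 and 10.4 CPM on day 0, then 44.2 and 39.7 on day 2 and 3.26 and 4.14 on day 6. Both genes were higher at day 2 than at day 0 with no overlap, 3.73-fold and 4.09-fold (SE 0.13 and 0.11 on the log2 scale). The other subunits also rose, Cdca8 (borealin) 2.54-fold and the scaffold Incenp 2.97-fold. By day 6 Aurkb, Birc5 and Cdca8 had fallen 11.5-fold, 11.4-fold and 8.67-fold from day 2, and Incenp 5.79-fold. Incenp was the third highest of the 49 genes at day 6 by level per length, at 3.17 CPM per 1000 exonic bases.

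Among checkpoint genes, Bub1, a kinase that recruits other checkpoint proteins to kinetochores, stood at 9.34 and 9.35 CPM on day 0, then 37.5 and 37.8 on day 2 and 2.14 and 1.95 on day 6. Bub1b (BubR1), part of the complex that inhibits anaphase, stood at 22.0 and 21.5 CPM on day 0, then 54.1 and 51.5 on day 2 and 4.96 and 6.03 on day 6. Mad2l1 (Mad2), which binds Cdc20 and blocks it, stood at 11.6 and 14.5 CPM on day 0, then 46.1 and 44.6 on day 2 and 10.1 and 10.5 on day 6. In Bub1 and Bub1b the day 6 libraries lay far below those of day 0, while in Mad2l1 the 2 days were close without overlapping. Bub1 fell 18.4-fold from day 2 to day 6 (log2 change -4.20, SE 0.11), the second steepest fitted fall of the set, and Mad2l1 4.41-fold (SE 0.12), the second mildest. At day 6 Mad2l1 kept 78.9% of its day 0 level (log2 change -0.34, SE 0.12, adjusted p = 0.0348 by edgeR). It was no longer called under 5 of 12 alternatives, in a range of adjusted p by edgeR or DESeq2 from 0.00361 to 0.272. The losses were without day 0 replicate 77 (adjusted p = 0.272 by edgeR, log2 change -0.17), without day 2 replicate 76 (adjusted p = 0.0621) or 77 (adjusted p = 0.0629), without day 6 replicate 76 (adjusted p = 0.106) and with only the 4 libraries of days 0 and 6 (adjusted p = 0.0835).

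Kinetochore and centromere genes rose at day 2 in 7 of 7 cases and split at day 6. Ndc80, the microtubule-binding subunit that names its complex, stood at 6.39 and 6.80 CPM on day 0, then 15.6 and 14.0 on day 2 and 0.849 and 1.35 on day 6. Cenpa, the histone variant that marks centromeres, stood at 13.3 and 12.8 CPM on day 0, then 32.5 and 32.1 on day 2 and 4.38 and 4.44 on day 6. Cenpf, a large kinetochore protein, stood at 14.5 and 14.2 CPM on day 0, then 34.2 and 35.0 on day 2 and 2.10 and 2.64 on day 6. All 3 kept the order of day 2 above day 0 above day 6. Ndc80 rose 2.24-fold, Cenpa 2.47-fold and Cenpf 2.41-fold, and by day 6 Cenpf stood 6.07-fold below day 0 (log2 change -2.60, SE 0.13), the second largest fitted fall over the course. Cenpe, a kinetochore motor that carries chromosomes to the spindle equator, rose 2.87-fold and then fell 12.6-fold.

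The 4 subunits of the Ndc80 complex, Ndc80, Nuf2, Spc24 and Spc25, did not keep the same proportions. Spc25 stood at 10.2 and 10.0 CPM on day 0, then 40.9 and 39.5 on day 2 and 11.7 and 13.9 on day 6. Its day 6 libraries lay above both of its day 0 libraries, the only such case among the 49 genes. Spc25 rose 3.99-fold to day 2 (log2 change 1.99, SE 0.10) and fell 3.15-fold from there (SE 0.10), the mildest fitted fall of the set. At day 6 against day 0 it was 1.26-fold higher (log2 change 0.34, SE 0.11, adjusted p = 0.0216 by edgeR), while Ndc80, Nuf2 and Spc24 were 6.04-fold, 3.65-fold and 3.53-fold lower. The call for Spc25 was lost under 6 of 12 alternatives, in a range of adjusted p by edgeR or DESeq2 from 0.00438 to 0.503. The losses were with library totals alone (adjusted p = 0.503 by edgeR, log2 change 0.09), with DESeq2 (adjusted p = 0.0660), and with only the 4 libraries of days 0 and 6 (adjusted p = 0.0513 by edgeR). Leaving out day 0 replicate 76 or 77 (adjusted p = 0.0771 and 0.0797 by edgeR) or day 6 replicate 77 (adjusted p = 0.101) ended it as well. In the other 3 subunits both day 6 libraries lay below both day 0 libraries. Of these, Spc24 differed most between its own day 6 libraries, at 1.43 and 3.39 CPM. In GRCm38 Spc25 lies on chromosome 2 from 69193895 to 69206194 (minus strand), and GENCODE M21 lists no other gene over its exons and none of its 50-mers in transcripts of other genes.

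Of the genes that drive anaphase, Cdc20, the coactivator of the anaphase-promoting complex, stood at 28.3 and 31.0 CPM on day 0, then 79.7 and 73.6 on day 2 and 6.48 and 9.03 on day 6. Ube2c, the enzyme that starts its ubiquitin chains, stood at 17.6 and 17.6 CPM on day 0, then 49.8 and 49.5 on day 2 and 6.57 and 7.53 on day 6. Espl1, separase, the protease that cuts cohesin, stood at 11.8 and 11.1 CPM on day 0, then 31.6 and 28.9 on day 2 and 2.81 and 3.39 on day 6. In each the libraries of a day lay apart from those of the other days. Espl1, Cdc20 and Ube2c rose 2.64-fold, 2.59-fold and 2.82-fold and then fell 9.77-fold, 9.93-fold and 7.05-fold. Cdca3, which helps destroy the mitotic inhibitor Wee1, rose 3.57-fold. Per length, Cdc20 was the highest of the 49 genes on every day, at 15.9, 41.0 and 4.15 CPM per 1000 exonic bases on days 0, 2 and 6. Next on days 0 and 2 came Ccnb2, at 10.7 and 32.5, and on day 6 Spc25, at 4.01.

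**Figure D3:**
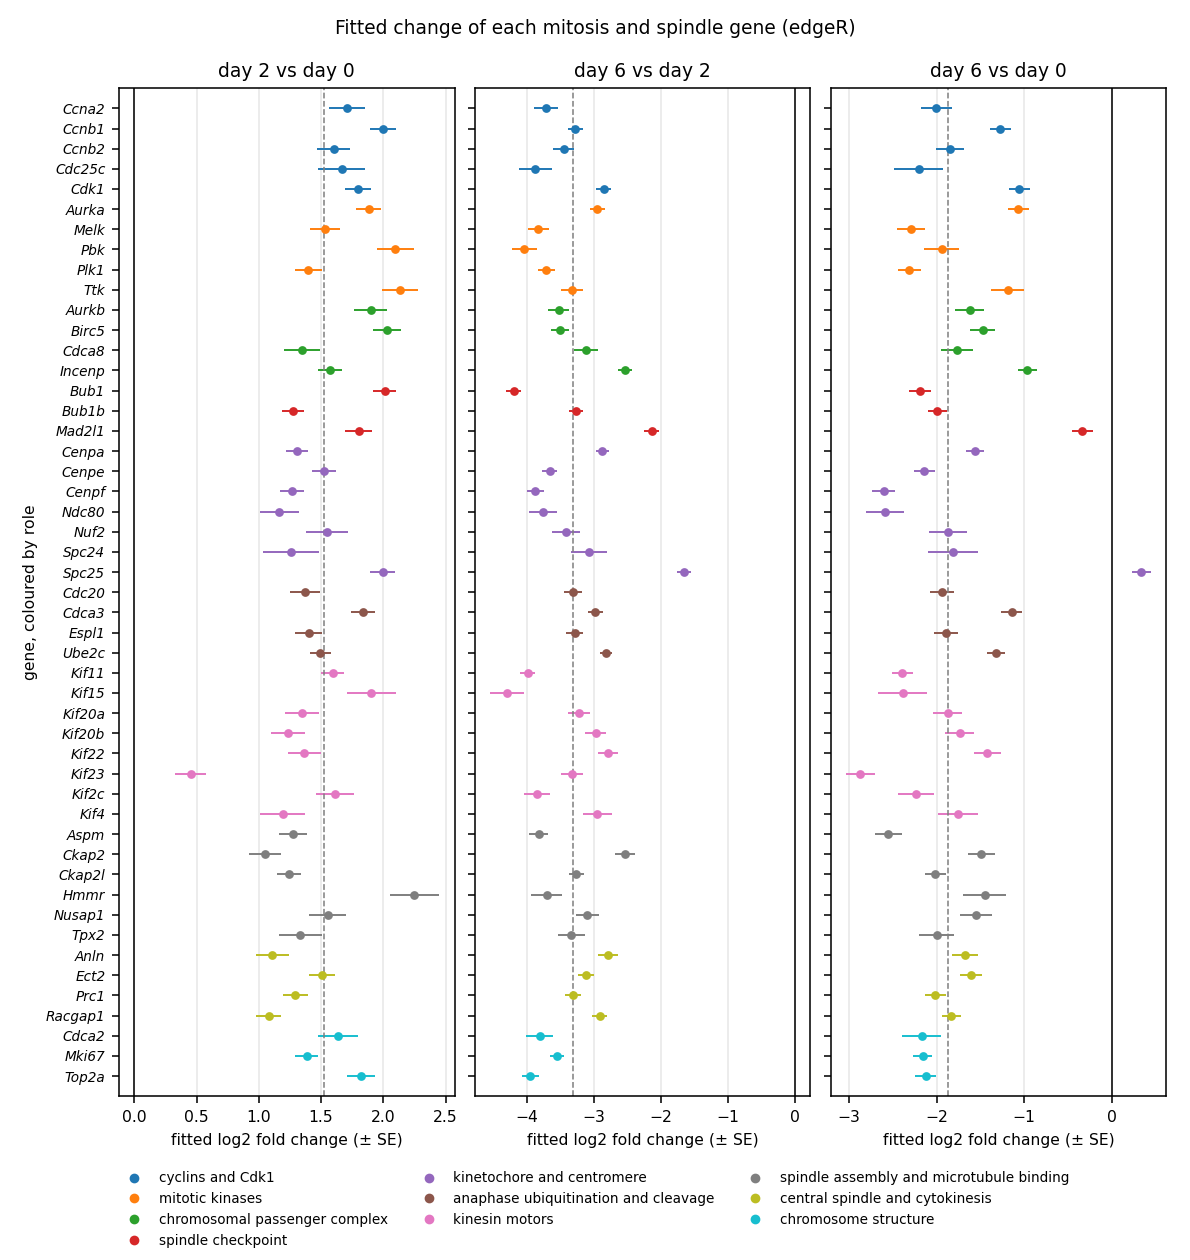
Fitted log2 fold change of each of the 49 genes in the 3 comparisons (points, coloured by role; bars are 1 SE of the edgeR fit; the dashed line is the median of the 49). Kif23 stands apart at day 2 against day 0 with 0.45, and Spc25 and Mad2l1 stand apart at day 6 against day 0 with 0.34 and -0.34.

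Kinesins are motors that walk along or take apart microtubules, and all 8 of the set rose and then fell. Kif11 (Eg5), which pushes the spindle poles apart, stood at 18.4 and 20.1 CPM on day 0, then 59.0 and 57.2 on day 2 and 3.31 and 4.04 on day 6. Kif15, which can stand in for Kif11, stood at 6.42 and 6.51 CPM on day 0, then 23.8 and 24.6 on day 2 and 0.715 and 1.80 on day 6. Kif20a, a motor of the central spindle, stood at 21.6 and 20.8 CPM on day 0, then 53.2 and 54.7 on day 2 and 4.56 and 7.08 on day 6. Each was highest in both day 2 libraries. Kif15 had the steepest fitted fall of the 49 genes from day 2 to day 6, 19.6-fold (log2 change -4.29, SE 0.26), and its day 6 libraries held 16 and 36 counts. Kif11 fell 15.9-fold (SE 0.12), and Kif2c, which takes microtubules apart at kinetochores, 14.4-fold. Kif4, a motor bound to chromosomes, and Kif22, which pushes chromosome arms outwards, rose 2.28-fold and 2.58-fold by day 2, and Kif20b, which acts in cytokinesis, 2.35-fold.

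Kif23, which with Racgap1 forms the centralspindlin complex that positions the cleavage furrow, differed from the other kinesins. It stood at 11.3 and 11.5 CPM on day 0, then 16.3 and 15.03 on day 2 and 1.34 and 1.80 on day 6. Its day 2 libraries lay above those of day 0 by much less than in other members. The rise was 1.37-fold (log2 change 0.45, SE 0.12, adjusted p = 0.0111 by edgeR), the only one of the 49 under 2-fold. It was not called without day 0 replicate 76 (adjusted p = 0.0690 by edgeR) or without day 2 replicate 76 (adjusted p = 0.0809), in a range of adjusted p by edgeR or DESeq2 from 0.00229 to 0.0809 over 12 alternatives. Its fall from day 2 to day 6, 10.0-fold (SE 0.16), was close to the median of the set, so that over the whole course it fell 7.31-fold (log2 change -2.87, SE 0.17), the most of the 49 genes. Its partner Racgap1 rose 2.11-fold and fell 7.53-fold from there. Kif23 lies on chromosome 9 from 61915905 to 61946774 (minus strand), with no other gene over its exons.

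The other genes of the central spindle and of cytokinesis rose less than most. Prc1, which bundles the microtubules of the central spindle, stood at 33.0 and 31.1 CPM on day 0, then 80.9 and 76.3 on day 2 and 6.92 and 8.98 on day 6. Ect2, the exchange factor that activates RhoA for the contractile ring, stood at 11.4 and 11.9 CPM on day 0, then 32.3 and 34.1 on day 2 and 3.44 and 4.24 on day 6. Both were highest at day 2 and lowest at day 6 in both libraries. Prc1 rose 2.45-fold (SE 0.10), Ect2 2.85-fold (SE 0.10) and Anln, anillin, the scaffold of that ring, 2.16-fold. The 4 genes of this role had a median log2 change of 1.20 at day 2, the lowest of the 10 roles, and no test compared the roles.

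Of the spindle assembly proteins, Tpx2, which activates Aurora A and starts microtubules near chromosomes, stood at 40.5 and 40.4 CPM on day 0, then 103 and 101 on day 2 and 7.28 and 13.1 on day 6. Hmmr, which helps place and build the spindle, stood at 14.2 and 13.9 CPM on day 0, then 68.1 and 65.7 on day 2 and 3.35 and 7.03 on day 6. Ckap2, a microtubule-binding protein of the spindle, stood at 24.7 and 23.9 CPM on day 0, then 49.6 and 51.1 on day 2 and 7.06 and 10.3 on day 6. In all 3 the 2 libraries of day 6 differed more from each other than did those of days 0 and 2. Hmmr had the highest fitted rise of the 49 genes at day 2, 4.76-fold (log2 change 2.25, SE 0.20), and Ckap2, at 2.07-fold (SE 0.13), the second lowest. Tpx2 rose 2.52-fold and fell 10.1-fold. Aspm, which focuses spindle poles, Nusap1, which binds microtubules near chromosomes, and Ckap2l rose 2.41-fold, 2.93-fold and 2.37-fold, and Aspm fell 5.86-fold over the whole course.

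Top2a, the topoisomerase that untangles sister chromatids, was the most abundant member by CPM in every library. It stood at 70.9 and 74.9 CPM on day 0, then 256 and 259 on day 2 and 14.3 and 19.2 on day 6. Mki67, which coats mitotic chromosomes and is used as a marker of cycling cells, stood at 49.98 and 46.7 CPM on day 0, then 124 and 129 on day 2 and 9.61 and 12.1 on day 6. In both genes the days did not overlap. Top2a rose 3.53-fold and fell 15.4-fold (log2 change -3.94, SE 0.13), and Mki67 rose 2.61-fold and fell 11.7-fold (SE 0.11). Top2a made up 8.34% and 8.70% of the summed CPM of the 49 genes on day 0, then 10.2% and 10.6% on day 2 and 6.35% and 6.38% on day 6. Cdca2, which brings a phosphatase to chromosomes at mitotic exit, rose 3.11-fold and fell 14.0-fold.

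The sequence around the starts of the 49 genes was read for motifs known from mitotic promoters. The genes were chosen as known mitotic genes, so such motifs could be common in them whatever these libraries showed. The CHR hexamer TTTGAA is bound by the MuvB complex through Lin54, the pentamer CCAAT by NF-Y, and E2F factors bind sites such as the spelled-out TTTCCCGC, TTTCGCGC, TTTGCCGC and TTTGGCGC. RefSeq promoter windows (GRCm38.p6, 250 bases before to 50 after a start) were at hand for 40 of the 49 genes, and both strands were searched. Where a gene had several windows only the first listed was read, so motifs at other starts would be missed. TTTGAA was in 32 of 40 windows (80%), against 18.1% of the windows of 27025 genes. CCAAT was in 30 of 40 (75%), against 37.9%, and 2 or more copies were in 21 (52.5%), against 12.2%. Both motifs together were in 27 of 40 (67.5%), against 7.12%. The 4 E2F spellings were in 2 of 40 (5%), against 2.32%. Each motif was counted on its own, and matches of different motifs may overlap. The 42 TTTGAA matches had a median distance of 2 bases after the start, with 32 of them within 50 bases of it, and the 71 CCAAT matches a median of 67 bases before it. The 27025 genes are those with a window, whether or not they were tested here. A match is a run of letters and not a measured binding site.

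**Figure D4:**
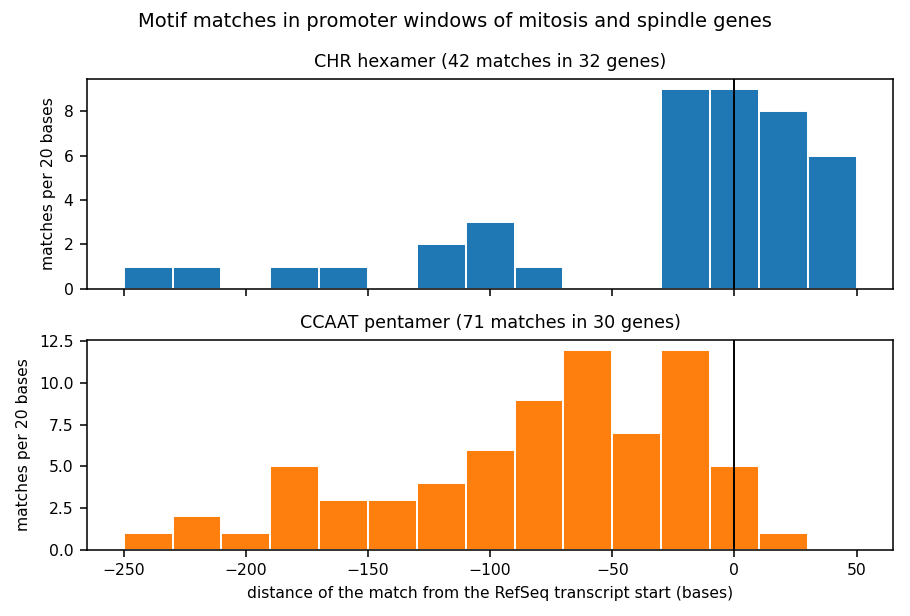
Matches of the CHR hexamer (upper panel) and the CCAAT pentamer (lower panel), both strands, by distance in bases from the RefSeq transcript start, in 20-base bins over the promoter windows of the 40 members with a window. CHR matches gather around the start, where 32 of 42 lie within 50 bases, and CCAAT matches lie mostly before it.

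Windows of 6 genes are printed 5′ to 3′ in the direction of the gene, with matches of these motifs on either strand in capitals (TTCAAA and ATTGG are the reverse complements). Ccnb2, Plk1 and Top2a are examples that hold both TTTGAA and CCAAT. Kif23, which also holds both, stood apart at day 2 against day 0. Spc25, which holds both too, and Mad2l1 stood apart at day 6 against day 0. The windows are chr9:70421505-70421804 (minus strand) for Ccnb2, chr7:122159185-122159484 (plus strand) for Plk1, chr11:99024140-99024439 (minus strand) for Top2a, chr9:61946750-61947049 (minus strand) for Kif23, chr2:69206164-69206463 (minus strand) for Spc25 and chr6:66534971-66535270 (plus strand) for Mad2l1.
Ccnb2: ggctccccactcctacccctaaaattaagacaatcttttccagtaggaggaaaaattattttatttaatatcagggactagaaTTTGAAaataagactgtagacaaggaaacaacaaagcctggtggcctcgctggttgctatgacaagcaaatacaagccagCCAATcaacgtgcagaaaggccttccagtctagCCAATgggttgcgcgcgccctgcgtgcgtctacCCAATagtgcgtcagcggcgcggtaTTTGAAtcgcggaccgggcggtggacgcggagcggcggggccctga
Plk1: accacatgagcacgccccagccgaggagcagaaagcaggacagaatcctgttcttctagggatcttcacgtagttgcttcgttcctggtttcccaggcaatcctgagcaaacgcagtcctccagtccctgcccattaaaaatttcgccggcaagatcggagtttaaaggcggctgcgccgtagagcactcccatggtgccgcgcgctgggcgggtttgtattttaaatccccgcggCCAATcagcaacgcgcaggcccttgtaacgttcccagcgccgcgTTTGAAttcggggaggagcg
Top2a: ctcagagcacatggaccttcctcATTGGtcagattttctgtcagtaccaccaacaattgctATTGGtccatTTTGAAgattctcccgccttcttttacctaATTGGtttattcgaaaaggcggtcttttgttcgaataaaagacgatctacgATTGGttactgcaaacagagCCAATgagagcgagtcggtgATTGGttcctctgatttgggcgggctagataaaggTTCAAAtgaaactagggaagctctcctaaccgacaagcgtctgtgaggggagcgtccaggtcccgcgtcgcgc
Kif23: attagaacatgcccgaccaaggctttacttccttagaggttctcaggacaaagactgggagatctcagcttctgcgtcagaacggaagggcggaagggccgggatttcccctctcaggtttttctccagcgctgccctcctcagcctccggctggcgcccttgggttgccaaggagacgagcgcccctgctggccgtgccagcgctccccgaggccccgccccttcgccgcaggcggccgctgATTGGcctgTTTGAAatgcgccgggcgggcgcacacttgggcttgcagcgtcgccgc
Spc25: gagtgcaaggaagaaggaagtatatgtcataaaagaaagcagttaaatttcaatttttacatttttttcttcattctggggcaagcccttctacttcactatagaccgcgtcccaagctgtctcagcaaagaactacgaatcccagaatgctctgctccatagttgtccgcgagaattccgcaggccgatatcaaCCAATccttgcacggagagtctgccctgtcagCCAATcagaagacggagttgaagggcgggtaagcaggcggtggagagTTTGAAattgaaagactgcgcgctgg
Mad2l1: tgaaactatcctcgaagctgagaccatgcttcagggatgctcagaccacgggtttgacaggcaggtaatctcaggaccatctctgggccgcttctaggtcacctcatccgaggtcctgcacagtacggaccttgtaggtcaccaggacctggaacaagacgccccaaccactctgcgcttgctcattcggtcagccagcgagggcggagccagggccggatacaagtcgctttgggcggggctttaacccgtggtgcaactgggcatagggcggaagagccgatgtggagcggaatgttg
Ccnb2 held 3 CCAAT matches before the start, 87, 54 and 21 bases from it, and TTTGAA matches 167 bases before it and 4 after it. Top2a held 6 CCAAT matches and 2 of TTTGAA. Kif23 had the lowest fitted rise to day 2, and Spc25 the mildest fitted fall from there. Each held a TTTGAA match near the start, 2 and 24 bases after it, with 1 and 2 CCAAT matches before it. The window of Mad2l1 held none of the letters searched. That window ended at 66535270, before the GENCODE M21 start of the gene at 66535390, so sequence at the latter start was not read. Other windows lay off the GENCODE start too. That of Kif2c reached 117179022, with the gene starting at 117182639 on the minus strand. That of Cdca8 reached 124937167, with the gene starting at 124939311 on the minus strand. Both windows held TTTGAA, and all distances given are from the RefSeq start. Over all members with a window, the 32 with TTTGAA had a median log2 change of 1.38 at day 2 against day 0 (0.45 to 2.25) and the 8 without it 1.68 (1.52 to 2.03). At day 6 against day 2 the medians were -3.28 and -3.46. As all 49 genes rose and then fell, the 8 without the hexamer had to do so too. Any part of these motifs in the changes was not tested.

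The 7 further lists of mitotic genes, also written with earlier results of these data known, held 154 genes, all tested. Of these 120 rose and 5 fell by day 2, 14 rose and 116 fell from day 2 to day 6, and 30 rose and 85 fell over the whole course. Of all genes tested, 33.6% were called higher and 33.6% lower in the first of these comparisons, 38.2% and 27.5% in the next, and 35.9% and 35.1% over the whole course, and the counts per list below stand against the same shares. Their median log2 changes were 0.86, -1.14 and -0.37, smaller in size than those of the 49 genes in each comparison. Among 35 other kinetochore genes 30 rose and 1 fell by day 2, with Zwilch, of the checkpoint's RZZ complex, 4.89-fold higher. From day 2 to day 6, 31 of them fell and 2 rose, and Casc5, the kinetochore scaffold Knl1, fell 20.5-fold. Among 35 other spindle and cytokinesis genes 30 rose by day 2, 31 fell and 1 rose from there to day 6, and Kif14 fell 17.0-fold. Of 21 genes of condensin, cohesin and their regulators 19 rose by day 2, and Esco2, which acetylates cohesin, rose 5.76-fold. By day 6, 15 of the 21 had fallen from day 2. At day 6 against day 0, 8 were higher and 9 lower, shares near those of all genes tested. Of 14 mitotic entry kinases and partners 11 rose and 1 fell by day 2, and Nek2, a kinase of centrosome separation, rose 4.30-fold. Of 9 centriole genes 5 rose, with Stil 4.04-fold higher.

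Of 17 genes of the anaphase-promoting complex, its coactivator Fzr1 (Cdh1), its inhibitor Fbxo5 (Emi1) and its enzyme Ube2s, 7 rose and 2 fell by day 2, with a median log2 change of 0.14, and 7 fell and 3 rose from day 2 to day 6. The 7 higher at day 2 stand beside 33.6% of all genes tested and the 7 lower at day 6 beside 27.5%, so these counts are no result about the complex. Fbxo5 stood at 5.86 and 7.13 CPM on day 0, then 18.5 and 17.3 on day 2 and 1.16 and 2.69 on day 6, highest at day 2 like the 49 genes, with a 2.76-fold rise and a 9.40-fold fall. Fzr1, which keeps the complex active in G1 and in resting cells, stood at 69.4 and 69.7 CPM on day 0, then 74.7 and 63.6 on day 2 and 60.5 and 63.8 on day 6. It did not pass the test in any comparison (lowest adjusted p = 0.128 by edgeR, day 6 against day 0). Pttg1, securin, which holds separase inactive until anaphase, stood at 13.9 and 13.9 CPM on day 0, then 13.8 and 14.7 on day 2 and 31.9 and 28.3 on day 6. It thus departed from its partner Espl1: its day 2 libraries spanned those of day 0 on both sides, and its day 6 libraries were the highest, 2.16-fold above day 0 (log2 change 1.11, SE 0.10, adjusted p = 1.62e-05 by edgeR).

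Regulators of mitotic transcription were read beside the 49 genes. B-Myb (Mybl2) and FoxM1 bind the MuvB complex and switch mitotic genes on, while with the pocket proteins p107 (Rbl1) or p130 (Rbl2) and E2F4 the same complex keeps them off in resting cells. Foxm1 stood at 18.7 and 18.5 CPM on day 0, then 29.7 and 28.0 on day 2 and 3.62 and 4.84 on day 6. Mybl2 stood at 5.597 and 6.71 CPM on day 0, then 19.0 and 15.6 on day 2 and 1.16 and 1.20 on day 6. Both ran with the 49 genes, highest at day 2 and lowest at day 6, with rises of 1.55-fold and 2.82-fold and falls from there of 6.85-fold and 14.6-fold (adjusted p = 9.23e-07 and 1.18e-06 by edgeR). E2f8, an E2F that represses at the end of S phase, stood at 3.68 and 3.79 CPM on day 0, then 16.1 and 15.6 on day 2 and 0.849 and 0.898 on day 6, and its relative E2f7 at 5.13 and 4.04 CPM on day 0, then 11.4 and 11.9 on day 2 and 0.447 and 0.798 on day 6. They rose 4.24-fold and 2.53-fold and then fell 18.1-fold and 18.9-fold. E2f1, an activator of S phase genes, rose only 1.27-fold (adjusted p = 0.0470 by edgeR) and fell 2.53-fold.

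Rb1, the retinoblastoma protein, which restrains E2F factors, took another course. It stood at 13.9 and 14.7 CPM on day 0, then 21.5 and 22.9 on day 2 and 74.97 and 67.6 on day 6, with the days apart and day 6 on top. Rb1 rose 1.56-fold by day 2 and was 5.00-fold higher at day 6 than at day 0 (log2 change 2.32, SE 0.09, adjusted p = 1.47e-07 by edgeR). Rbl2 stood at 47.9 and 49.4 CPM on day 0, then 34.7 and 37.0 on day 2 and 51.6 and 54.3 on day 6, lowest at day 2 in both libraries, with a 1.36-fold fall to day 2 and a 1.48-fold rise from there. Rbl1 stood at 12.5 and 13.8 CPM on day 0, then 35.1 and 34.4 on day 2 and 10.5 and 10.5 on day 6 and followed the 49 genes, 2.65-fold up and 3.31-fold down. E2f4 was 1.45-fold higher at day 2 and fell 1.55-fold by day 6. The MuvB subunits Lin9 and Lin54 rose 3.10-fold and 2.25-fold by day 2, and Lin54 then fell 2.20-fold while the fall of Lin9 did not pass (log2 change -0.37, adjusted p = 0.0671 by edgeR). Of the other listed MuvB subunits, named after their values were seen, Rbbp4 rose 1.44-fold by day 2 and fell 1.17-fold from there. Lin52 rose 1.76-fold by day 2 and a further 1.60-fold by day 6. Lin37 did not pass at day 2 (log2 change 0.17, adjusted p = 0.337 by edgeR) and was 1.47-fold higher at day 6 than at day 0. Wee1, which inhibits Cdk1, stood at 21.3 and 19.6 CPM on day 0, then 18.3 and 15.4 on day 2 and 6.88 and 9.03 on day 6. It did not pass at day 2 (adjusted p = 0.101 by edgeR) and was 2.58-fold lower at day 6 than at day 0.

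**Figure D5:**
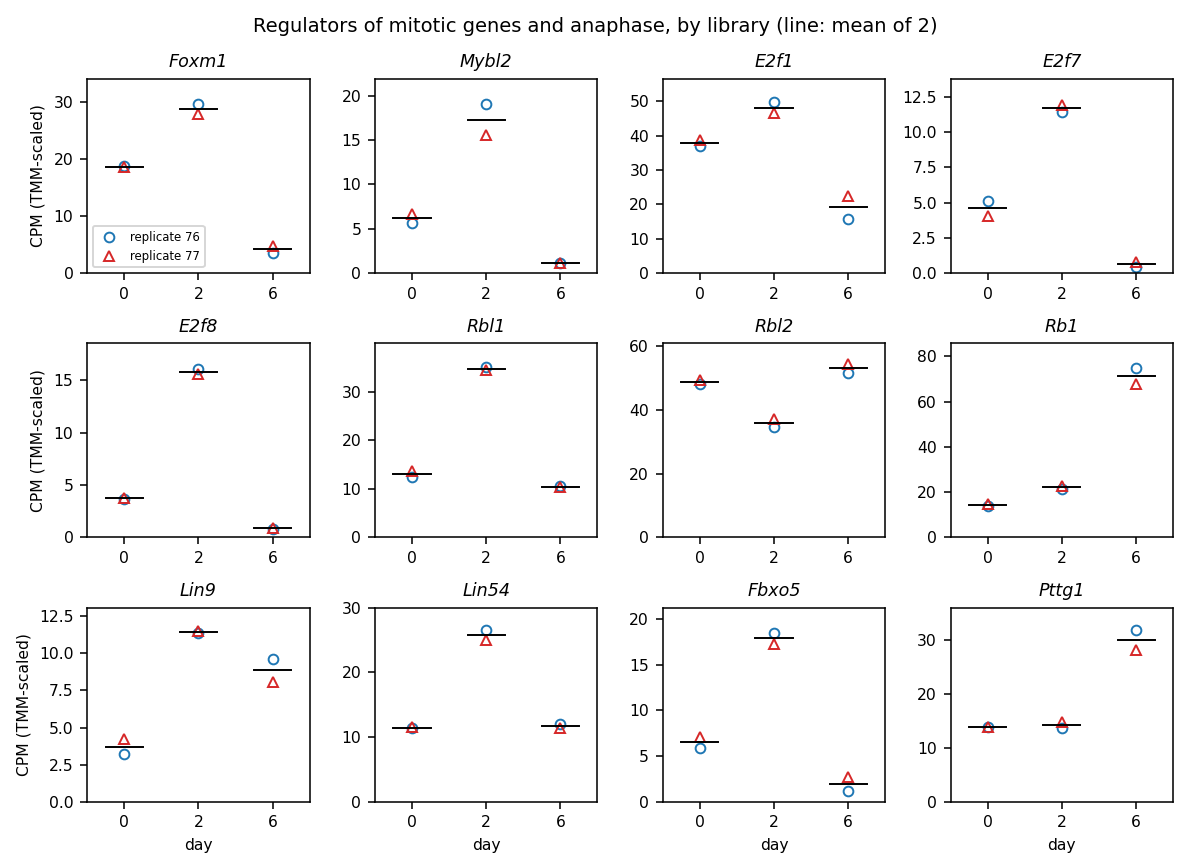
Level in CPM of 12 regulators of mitotic transcription and anaphase in each library (circles, replicate 76; triangles, replicate 77; lines, the mean of the 2) against day; each panel has its own axis from 0. Foxm1, Mybl2, E2f7, E2f8 and Fbxo5 peak at day 2, Rb1 and Pttg1 are highest at day 6, and Rbl2 is lowest at day 2.

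The libraries of a day agreed closely in these genes on days 0 and 2 and less at day 6. Replicate 77 was above 76 in 27 of 49 genes at day 0 and in 18 at day 2, with median log2 differences of 0.0069 and -0.04. At day 6 it was above in 47 of 49, with a median log2 difference of 0.43, where 51.6% of all genes tested with counts in both were above. The summed level of the 49 genes was 1.34 times as high in replicate 77 as in 76 at day 6. Without day 6 replicate 76 the median log2 change from day 0 to day 6 was -1.58, and without replicate 77 it was -2.11. Markers of macrophages differed between the same libraries: the summed level of 13 markers, 12 of them tested, was 158 and 64.3 CPM in replicates 76 and 77 on day 6, against 68.6 and 36.5 on day 2 and 55.5 and 48.7 on day 0. By day 2, 1 of the 12 was called lower, against 33.6% of all genes tested. From day 2 to day 6, 6 were called higher, against 38.2% of all genes tested. Other markers differed between the day 6 libraries as well. Adipocyte markers summed to 51185 and 43238 CPM and stromal precursor markers to 3282 and 5155 CPM, and the other lists are given below. The part of any of these cells in the levels of the 49 genes was not tested.

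Markers of the labelled cells and of other cell types moved over the same days. Of all genes tested, 33.6% were called higher and 33.6% lower by day 2. At day 6, 38.2% were called higher than at day 2. Against day 0, 35.9% were called higher at day 6 and 35.1% lower. All 8 adipocyte markers rose in each comparison, with a summed level of 1039 and 1209 CPM on day 0, then 10775 and 10011 on day 2 and 51185 and 43238 on day 6. Of 8 markers of stromal precursors 6 fell by day 2 and 7 were lower at day 6 than at day 0, from 33063 and 28582 to 4079.8 and 4462 and 3282 and 5155 CPM. The 10 endothelial markers summed to 37.2 and 32.1, 7.68 and 7.19 and 13.2 and 16.3 CPM on the 3 days. Of the 7 tested, 6 fell by day 2. The 9 mural markers summed to 707 and 653, 161 and 177 and 331 and 388 CPM, with Higd1b at 0 counts throughout. Of the 8 mural markers tested, 6 were called lower by day 2. From day 2 to day 6, 4 were called higher and 2 lower, with Cspg4 43.6-fold up and Kcnj8 17.9-fold down. The 5 Schwann cell markers summed to 9.77 and 8.98, 2.75 and 1.73 and 30.6 and 24.5 CPM. That sum does not stand for each marker: at day 6 against day 0, Mbp was 5.24-fold higher and S100b 2.29-fold lower. The 6 skeletal muscle markers summed to 25.04 and 38.1, 6.19 and 2.19 and 8.98 and 9.38 CPM, with Pax7 at 0. Lymphocyte markers summed to 0.0719 to 0.331 CPM over the libraries, with Cd3e and Cd3d at 0. None of these lists but that of adipocytes was higher in both day 2 libraries than in both day 0 libraries, and their part in the results was not tested.

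The level of a few members can be touched by how reads were assigned. The 49 genes lie on 18 chromosomes, and 39 had no more than 5% of their exonic length under another gene and no more than 5% of their 50-mers in transcripts of other genes (GENCODE M21). Of Kif20a 29.3% of the exonic length overlapped Cdc23, of Ube2c 22.8% overlapped Tnnc2, of Kif4 15.1% overlapped Pdzd11, of Ccna2 12.5% overlapped Exosc9, of Cdc25c 12.7% overlapped Gm3550, of Prc1 11.1% overlapped Rccd1 and of Ckap2l 5.77% overlapped Gm14024, each on the opposite strand. Of Ccnb1 23.4% of the 50-mers occurred in other genes, among them the pseudogene Ccnb1-ps, and of Plk1 10.4%, among them Plk-ps1. Of Cdc20, the highest member per length, 10.6% of the 50-mers occurred in other genes, among them Gm7856. Whether the counting used strand is not stated, so levels of these 10 members are less certain than those of the other 39. HTSeq set aside 4.397% to 4.91% of counted alignments as ambiguous between genes. The share set aside as not unique was 4.16% and 4.42% at day 0 and 7.50% and 9.05% at day 6.

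A change of scaling moves every gene in a comparison by nearly the same amount. The distance of the 49 genes from all genes could therefore hardly change with it. With library totals alone in place of TMM factors, the median log2 change of all genes tested shifted by 0.11 at day 2 against day 0, by -0.36 at day 6 against day 2 and by -0.25 at day 6 against day 0. The median of the 49 genes less that of all genes was 1.52, -3.44 and -1.86 with TMM factors and 1.52, -3.43 and -1.86 with totals alone. Of all genes called at day 6 against day 2, 58.1% were higher with TMM factors and 37.1% with totals alone, and at day 6 against day 0, 50.6% and 38.0%. The counts of the 49 genes called were the same under both, but for Spc25 at day 6 against day 0.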

How the data were processed

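RNA was measured in 6 libraries from 3 days with 2 replicates each. After oligo-dT capture the RNA was sheared to about 200 bp and reverse transcribed from random hexamers, per the labels' protocols. The authors deposited 1 table of raw read counts per gene; its column names say RPKM, but the values are whole numbers with different column sums and end in the 5 summary lines of HTSeq, which stayed out of library sizes and tests. TopHat2 2.0.13, HTSeq 0.9.1 and the builds mm10 and GRCm38 are named in the submitters' processing notes. The annotation, counting mode and strand setting were not given in the sources used. The series' text calls the replicates biological without naming an animal or culture for each, so a p-value covers only the spread of the libraries at hand. As reads carried no stated molecular identifiers, floors cover counting error only. As a check for a library deposited more than once, the counts of a day's 2 libraries were compared: chi-square per degree of freedom was 7.22, 8.08 and 28.4 for days 0, 2 and 6, above counting noise, and no pair was merged. This check says nothing of how independent the replicates were.

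Genes were tested with edgeR 4.0.16 in R 4.3.3 (TMM factors, filterByExpr, quasi-likelihood F test), with all 6 libraries in a single fit, a mean per day and 3 residual degrees of freedom. The Benjamini-Hochberg adjustment ran over 14459 genes, with a threshold of 0.05, and SEs are the log2 change divided by the root of F. The steps were tested on simulated counts. Replicate numbers were checked for pairing by correlating, over all genes tested, how libraries with one number deviated from the mean of their day: Pearson's r was 0.109, 0.112 and 0.213 for days 0 and 2, 0 and 6, and 2 and 6. Spearman's rho for the same pairs of days was 0.059, 0.055 and 0.176, below 0.1 for day 0 with either other day. As every Pearson's r passed 0.1, same-numbered libraries were treated as pairs in an alternative. The reported fit has no block. Alternatives were library totals, DESeq2 1.42.0 size factors, no filter, DESeq2's Wald test, only the 4 libraries compared, a replicate block, and each library left out. The members and lists were chosen with earlier results of these data known. Values in every library are given for fixed representatives of each role and for the 2 highest and 2 lowest changes in each comparison; other genes are named from fixed lists, as fixed regulators or as the 2 largest called changes per list and comparison. Exonic lengths and overlaps come from GENCODE M21 (GRCm38).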

Additional observations from a re-analysis of the deposited data

How the results depend on the processing

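Over 12 alternatives, 1764 fold changes of the 49 genes were recomputed, all kept their direction and 1751 kept their side of the threshold. The 13 that no longer passed belong to Spc25 and Mad2l1 at day 6 against day 0 and Kif23 at day 2 against day 0, whose values stand in the report. All 49 genes were called lower at day 6 than at day 2 under every alternative, and 48 or 49 higher at day 2 than at day 0. With the replicate number as a block, 49 genes were higher at day 2, 49 lower at day 6 than at day 2, and 48 lower and 1 higher at day 6 than at day 0, as without it; calls over all genes were 9847, 9669 and 10356, against 9704, 9501 and 10253. With library totals alone the median log2 change of the 49 genes was 1.63 at day 2 against day 0 and -3.67 at day 6 against day 2, and 3650 genes in all were called higher at day 6 than at day 2, against 5520. The 1 gene higher at day 6 than at day 0 became 0 with library totals alone, with DESeq2's Wald test and with only the 4 libraries of these days by edgeR; at an unadjusted p of 0.05 these gave 0, 1 and 1. Leaving out each library in turn gave 0 to 1 such genes, and medians of 1.49 to 1.66 at day 2 against day 0, -3.56 to -3.13 at day 6 against day 2 and -2.11 to -1.58 at day 6 against day 0. Where that left a day with 1 library, it is assumed to vary like the others. Depth limits the lowest member, Cdc25c, which had 10 and 14 counts at day 6.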

Other observations

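Some genes outside the 49 took other courses. Plk3, a polo-like kinase of stress responses, stood at 6.42 and 7.29 CPM on day 0, then 5.27 and 5.86 on day 2 and 50.4 and 47.2 on day 6, and was 7.13-fold higher at day 6 than at day 0, while Plk2 stood at 124 and 101 CPM on day 0, then 32.8 and 32.5 on day 2 and 9.56 and 16.4 on day 6 and was 8.74-fold lower. Both thus differed from Plk1, which peaked at day 2. E2f2, an activating E2F, stood at 0.994 and 1.19 CPM on day 0, then 6.90 and 5.54 on day 2 and 7.10 and 6.13 on day 6; it rose 5.71-fold by day 2 and, unlike E2f1, E2f7 and E2f8, was not called lower from day 2 to day 6 (adjusted p = 0.684 by edgeR). Cit, a kinase of the midbody in cytokinesis, rose and then fell like the 49 genes. It stood at 11.1 and 11.2 CPM on day 0, then 18.3 and 16.0 on day 2 and 1.21 and 1.75 on day 6, with a rise of 1.55-fold by day 2 and a fall of 7.57-fold over the course. Anapc13, a subunit of the anaphase-promoting complex, stood at 18.2 and 18.0 CPM on day 0, then 19.4 and 17.8 on day 2 and 44.9 and 39.0 on day 6 and was 2.32-fold higher at day 6 than at day 0. These genes were picked from the listed pathway genes by the size of their change.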
